A study of Mus musculus with 12 samples.

Results

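Left ventricles injected with the hydrogel Upy-PEG alone were compared with left ventricles injected with phosphate-buffered saline (PBS). The comparison used 8 of the 12 RNA sequencing libraries of the study, chosen by their labels, with 4 libraries per group. All mice were healthy, of strain C57BL/6J, with no altered gene and no drug in either group; their age and sex are not given in the labels. Under anaesthesia the thorax was opened and 2 portions of 10 µl were placed in the heart muscle, and the left ventricle was taken 3 days later. Both groups therefore carried the surgery and the needle injury, and the groups differed in the material left behind. The other 4 libraries came from hearts given the hydrogel with antimiR-195. They entered the choice of genes with enough counts, the scaling and the shared estimate of the spread, and are not compared here.

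Upy-PEG is a soft gel in which poly(ethylene glycol) chains are joined through ureidopyrimidinone end groups that pair by reversible hydrogen bonds, and such gels serve as depots for drugs in the heart wall. An implanted material is met first by proteins and platelets, then by phagocytes that bind it through receptors, spread on it with actin-rich contacts and may stay for weeks. The muscle cells of the ventricle, which supply most of its RNA, live on fatty acids, lactate and glucose burnt in their mitochondria, whereas activated phagocytes use other isoforms of the same transport and enzyme families. In RNA from whole tissue, more or fewer cells of a type and more or less RNA per cell cannot be told apart. The labels do not say how much of each ventricle held gel, nor whether different libraries stem from different animals, and the p-values given here measure only the spread among these libraries.

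The PBS libraries held 24105867 to 30278621 counts on genes and the Upy-PEG libraries 25018689 to 28249454. Some libraries stood apart from their group. The first principal component of the 8 libraries held 39.0% of the variance and placed the PBS libraries at −32.5, −25.8, −6.52 and −7.96 and the Upy-PEG libraries at 47.0, 22.1, −3.55 and 7.25, so that PBS 1 and 2 and Upy-PEG 1 and 2 lay far from zero and the other 4 close together. Upy-PEG 1 and 2 also had the 2 largest TMM scaling factors of the 8, 1.14 and 1.07, the factors by which edgeR corrects for library composition. PBS 1 carried 12.3% of its counts on mitochondrial genes, against 16.6% to 19.5% in the other 7 libraries. Of 7 library measures, the number of genes with a count had the lowest p, with 18963 to 19166 genes in PBS and 19087 to 19740 in Upy-PEG (2-sided exact permutation p = 0.0857, adjusted over the 7 measures 0.6). The tissue matched its label: the ventricular light chain gene Myl2 had a mean of 3473 RPKM in PBS and 2918 in Upy-PEG, against 10.5 and 9.17 RPKM for its atrial counterpart Myl7, and no gene of a list for thymus and lung had enough counts to be tested.

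Hearts with hydrogel had higher values for genes of phagocyte receptors, actin remodelling and entry of proteins into the secretory pathway. Part of the nucleotide sensing genes stood higher too. Values were lower for genes of the tricarboxylic acid cycle, branched-chain amino acid breakdown, the sarcomere, clock output and 2 activators of the small GTPase Rap1. Most differences were small beside the spread between libraries of a group, and no single gene passed the adjusted threshold in the fit to all 12 libraries. In that fit, edgeR's quasi-likelihood test with Benjamini-Hochberg adjustment called 0 of 14770 genes at 0.05 (0% called), and the smallest adjusted p was 0.0809 for a higher gene and 0.0971 for a lower one. At an unadjusted p under 0.05, 1378 genes were higher (9.33%) and 566 lower (3.83%), with a median log2 fold change of 0.69 and −0.36 and a median of −0.03 over all genes. In CPM, the count of a gene per scaled library size, all 4 Upy-PEG libraries lay above all 4 PBS libraries for 873 genes (5.91%) and below them for 557 (3.77%). Over all genes tested, 6602 fold changes were positive and 8168 negative. These shares and signs are the background against which the counts of each gene group below are read.

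The choice of model moved the adjusted calls. With the 8 compared libraries alone, 172 of 14579 genes passed 0.05 (1.18%), 163 higher and 9 lower, with a smallest adjusted p of 0.044. DESeq2 called 511 genes (468 higher, 43 lower) and limma voom with sample weights 918 (701 higher, 217 lower). Without Upy-PEG 3 the 12-library model called 46, and without any other 1 of the 8 libraries 0. The 566 genes lower at an unadjusted p under 0.05 became 318 without Upy-PEG 1, 290 without Upy-PEG 2 and 327 without PBS 2, and 174 with scaling by library size alone. The 1378 higher genes became 766 when PBS 1 and Upy-PEG 1 were left out together, a choice made after seeing the data. The share of higher genes among those at an unadjusted p under 0.05 was 70.9% with TMM scaling, 91.7% with scaling by library size alone and 90.8% on the deposited RPKM. Scaling by library size alone moved the median of all genes by 0.101 on the log2 scale, so log2 differences below are relative to the TMM scale. Genes higher at an unadjusted p under 0.05 were rarer transcripts than those lower, with a median of 6.01 against 37.0 CPM in PBS (15.3 over all genes). The difference was more than 2-fold in 325 of the higher genes and 29 of the lower ones.

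Among the 12 higher genes with the lowest p, Apobec1 led. It encodes a cytidine deaminase that edits messenger RNA, best known for the transcript of apolipoprotein B (ENSMUSG00000040613, GRCm38 chromosome 6, 122577792 to 122602444). Apobec1 measured 8.6004, 10.8, 13.1 and 13.6 CPM in PBS and 23.9, 26.1, 23.2 and 21.6 in Upy-PEG. The lowest Upy-PEG library lay well above the highest PBS library, so the groups did not overlap. The log2 fold change was 1.04 ± 0.149 (± SE here and below, 2.06-fold; edgeR quasi-likelihood adjusted p = 0.0809 with 12 libraries and 0.0440 with 8), and it stayed between 0.92 and 1.13 when any 1 library was left out. Next to it on the chromosome lies Gdf3 (GRCm38 chromosome 6, 122605403 to 122610087), a ligand of the transforming growth factor beta family. Gdf3 measured 0.261, 0.424, 0.583 and 0.438 CPM in PBS and 2.24, 1.39, 1.19 and 1.55 in Upy-PEG, a rare transcript in all libraries with no overlap between groups, and its log2 fold change was 1.91 ± 0.304 (edgeR adjusted p = 0.0809, 0.0440 with 8 libraries).

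A pair of higher genes encode receptors of the SLAM family, which bind their own kind on neighbouring leukocytes, and lie in 1 cluster on chromosome 1. Ly9 (GRCm38 chromosome 1, 171588624 to 171607410) measured 2.51, 1.57, 3.21 and 2.79 CPM in PBS and 6.49, 8.92, 4.76 and 6.98 in Upy-PEG. Cd84 (GRCm38 chromosome 1, 171839697 to 171890718) measured 5.96, 4.96, 8.49 and 7.88 CPM in PBS and 16.2, 22.5, 13.1 and 15.2 in Upy-PEG. Neither gene's groups overlapped, and Upy-PEG 2 was the highest library for both, with log2 fold changes of 1.43 ± 0.237 and 1.30 ± 0.223 (edgeR adjusted p = 0.0878 and 0.0914, 0.0440 for both with 8 libraries). Alcam, an adhesion molecule of the immunoglobulin superfamily, stood at 1.02 ± 0.170 and Kcnab2, a β subunit of voltage-gated potassium channels, at 0.86 ± 0.161 on the log2 scale. Tfec, a transcription factor of the MiT family, measured 0.814, 0.467, 0.916 and 1.15 CPM in PBS and 2.21, 2.38, 2.02 and 2.55 in Upy-PEG, again without overlap and with a log2 fold change of 1.44 ± 0.269. Lcp1, which encodes the actin-bundling protein L-plastin of leukocytes, had a mean level of 5.44 RPKM in PBS and 11.3 in Upy-PEG, with a log2 fold change of 0.95 ± 0.177. The remaining leading genes were Nppa at 1.60, Il1rn at 1.38, Cd68 at 1.22 and the unnamed gene model Gm49339 at 1.18, and all 12 had non-overlapping groups. Nppa is also an atrial muscle marker. Of the 9 atrial markers tested, 8 had negative fold changes, with a median of −0.26 that was 0.09 without PBS 4. The part of atrial muscle in the Nppa value was not tested.

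**Figure D1:**
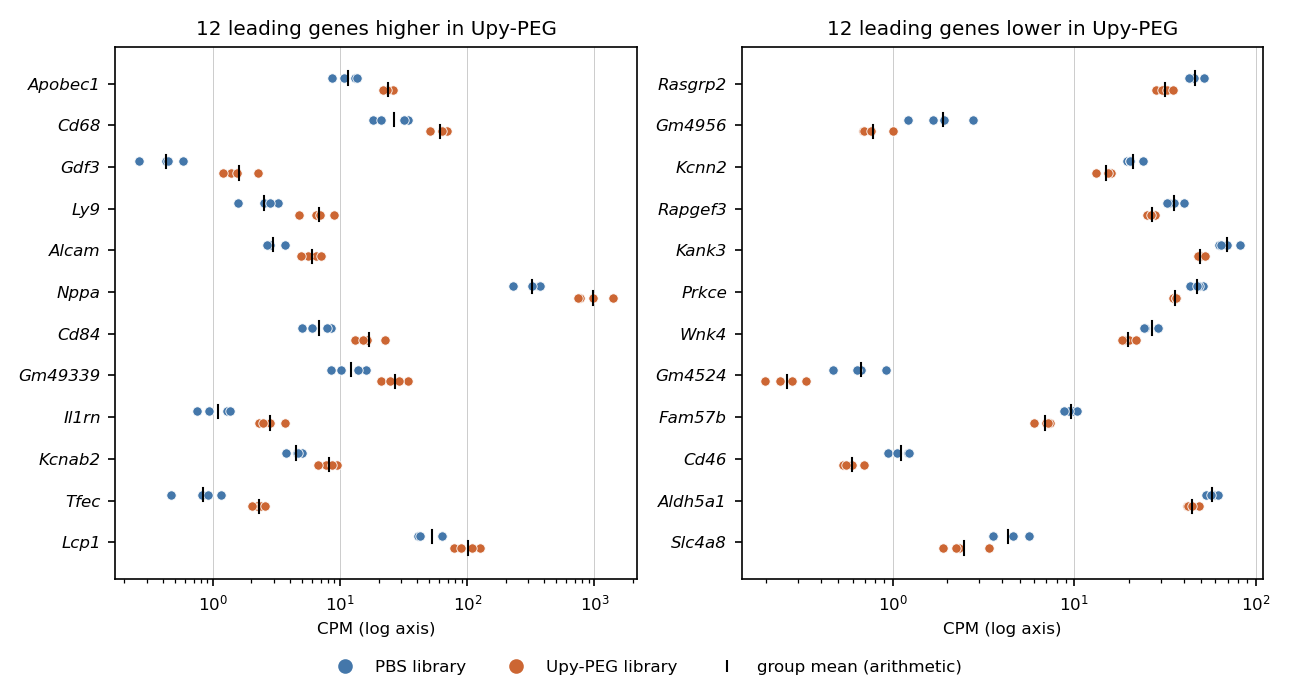
CPM of each library (points, log axis) and arithmetic group means (bars) for the 12 higher and the 12 lower genes with the lowest p. No Upy-PEG point crosses a PBS point in any of the 24 genes; differences are near 2-fold or more for most higher genes and smaller for most lower ones.

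The 12 lower genes with the lowest p held a pair that switch on Rap1, a GTPase of cell adhesion and junctions. Rasgrp2, which responds to calcium and diacylglycerol (ENSMUSG00000032946, GRCm38 chromosome 19, 6399340 to 6415216), measured 44.2, 51.7, 45.6 and 42.8 CPM in PBS and 28.1, 30.6, 32.6 and 35.0 in Upy-PEG. Rapgef3, also called Epac1, responds to cyclic AMP (GRCm38 chromosome 15, 97744770 to 97767972) and measured 40.5, 35.6, 33.4 and 32.3 CPM in PBS and 25.2, 27.4, 27.9 and 26.6 in Upy-PEG. Both had lower values in every Upy-PEG library than in any PBS library, with log2 fold changes of −0.55 ± 0.105 and −0.40 ± 0.0935 (edgeR adjusted p = 0.0971 and 0.0974, and 0.0440 and 0.0587 with 8 libraries). Prkce, protein kinase C epsilon, a diacylglycerol-activated kinase of heart muscle (GRCm38 chromosome 17, 86167785 to 86657919), measured 43.3, 51.4, 48.5 and 47.4 CPM in PBS and 36.4, 35.0, 36.6 and 36.2 in Upy-PEG. Its Upy-PEG libraries spanned less than 2 CPM, and its log2 fold change was −0.40 ± 0.0939 (edgeR adjusted p = 0.0985, 0.0485 with 8 libraries). Kank3, a cytoskeletal protein of endothelial cells (GRCm38 chromosome 17, 33810519 to 33822918), measured 81.4, 69.4, 62.9 and 64.0 CPM in PBS and 48.1, 50.1, 47.9 and 52.2 in Upy-PEG, with a log2 fold change of −0.49 ± 0.113.

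Among the other lower genes, several handle ions. Kcnn2, a calcium-activated potassium channel of small conductance, measured 19.6, 20.2, 23.8 and 20.3 CPM in PBS and 13.2, 15.7, 15.99 and 15.3 in Upy-PEG, without overlap, and stood at −0.48 ± 0.109 on the log2 scale (edgeR adjusted p = 0.0971). Wnk4, a kinase that controls chloride cotransporters, stood at −0.43 ± 0.101, and Slc4a8, a sodium-driven bicarbonate exchanger, at −0.81 ± 0.211. Aldh5a1, the mitochondrial enzyme that oxidises succinic semialdehyde, stood at −0.38 ± 0.0962, Fam57b at −0.48 ± 0.121 and the complement regulator Cd46 at −0.90 ± 0.227. The pseudogene Gm4956 (−1.28) and the antisense gene Gm4524 (−1.35) were rare, at means of 1.89 and 0.670 CPM in PBS, and the strand setting of the counting is not given in the sources used here. Of the 9 genes that passed lower with 8 libraries, Rasgrp2, Kank3 and Prkce are described above; Tob2, an antiproliferative adaptor, stood at −0.56, Intu, a protein of cilium assembly, at −0.49, Acsf2, an acyl-CoA synthetase, at −0.49, Retnla at −1.22, Per1 at −0.76 and Car3 at −1.34. Tob2, Intu, Acsf2 and Retnla were named after their values were seen.

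Receptors that signal through the immunoreceptor tyrosine-based activation motif (ITAM) formed the list with the highest median of 50 pathway lists. ITAM adaptors sit beside Fc receptors and TREM2 in the membrane of phagocytes and pass binding of antibody, lipid or debris to the kinase Syk. Of 22 genes tested, 17 were higher at an unadjusted p under 0.05 (9.33% of all genes) and 0 lower (3.83%), 12 had non-overlapping groups and all 22 fold changes were positive (median log2 fold change 0.82, 1.76-fold). Averaged over the list as the log2 deviation from the mean of the 8 libraries, which is called the list mean below, Upy-PEG 3 lay at −0.04 and PBS 4 at 0.01, so the group ranges met at those 2 libraries. Among the adaptors, Fcer1g measured 21.4, 18.7, 28.5 and 33.2 CPM in PBS and 54.1, 60.8, 34.9 and 48.1 in Upy-PEG. Tyrobp measured 23.2, 17.6, 26.1 and 34.1 CPM in PBS and 46.6, 61.9, 38.3 and 51.7 in Upy-PEG, and neither adaptor's groups overlapped. Their log2 fold changes were 0.96 ± 0.287 and 0.98 ± 0.272 (edgeR adjusted p = 0.149 and 0.124, and 0.0485 and 0.0470 with 8 libraries). Trem2, a receptor for lipids and cell debris, measured 10.001, 7.85, 14.1 and 15.4 CPM in PBS and 29.4, 38.6, 21.7 and 31.8 in Upy-PEG, without overlap, and stood at 1.36 ± 0.324 (edgeR adjusted p = 0.0986, 0.0440 with 8 libraries).

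The Fc receptor genes Fcgr1, Fcgr3 and Fcgr4, which bind antibody, stood at 1.01, 0.81 and 1.16 on the log2 scale; they resemble each other in sequence and share reads to an unknown degree. Downstream, Btk, a kinase of the Tec family, stood at 0.83 ± 0.190 and Vav1, which activates Rac, at 0.80 ± 0.235. The inhibitory receptors Cd300a and Sirpa, which counter these signals, were higher as well, at 1.10 ± 0.249 and 0.62 ± 0.148. Syk itself, the kinase that the adaptors recruit, had the smallest fold change of the list, at 0.17 ± 0.144 (edgeR adjusted p = 0.698), with 37.0, 42.2, 44.4 and 40.9 CPM in PBS and 47.3, 48.7, 42.6 and 46.0 in Upy-PEG. Markers of resident cardiac macrophages were higher in 2 of 10 genes and lower in 0, with list means of −0.14 to 0.14 in PBS and −0.20 to 0.28 in Upy-PEG. Dendritic cell markers were higher in 0 of 8 and lower in 0, with list means of −0.50 to 0.20 and −0.54 to 0.52; the part of these cells in the receptor genes was not tested.

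Promoters are shown as a description for the higher genes of the ITAM list, which was picked for its high median in these data. The factor PU.1 is a known regulator of phagocyte genes, and its part in these values was not tested. Members of the list that were not higher were not counted. The letters GAGGAAG, a core bound by ETS factors such as PU.1, were searched on both strands in RefSeq promoter windows of GRCm38.p6. They occurred in 13.6% of all 32851 windows of 300 bases, and in 4.72% of all windows when only the 100 bases before the start site were read. Of the 17 higher genes, 13 had a window; 10 held the core in the window and 7 within the 100 bases before the start. For comparison, the 17 higher genes of the actin list had 14 windows, of which 3 held the core, and the 7 higher NADPH oxidase genes had 3 windows, of which 0 did. Over all genes higher at an unadjusted p under 0.05 the core was in 18.8% of windows, over the lower ones in 13.9% and over all genes tested in 13.7%. The other 3 motifs searched were TGACTCA, bound by AP-1, in 6.09% of windows of higher genes, 3.43% of lower and 3.87% of tested genes; CACGTG, the E-box, in 8.42%, 9.25% and 9.71%; and TTATGNAA, a D-box core bound by PAR bZIP factors, in 2.33%, 2.57% and 2.04%. A match is a description of the letters and not a measured site. The 100 bases before the start are given 5′ to 3′ on the strand of the gene, with the core or its reverse complement in capitals, for Fcgr1 (chr3:96293970-96294069, minus strand), Fcgr3 (chr1:171059404-171059503, minus), Fcgr4 (chr1:171018826-171018925, plus), Trem2 (chr17:48346301-48346400, plus), Vav1 (chr17:57279000-57279099, plus), Cd300a (chr11:114889941-114890040, plus) and Cd300lf (chr11:115133993-115134092, minus).
Fcgr1: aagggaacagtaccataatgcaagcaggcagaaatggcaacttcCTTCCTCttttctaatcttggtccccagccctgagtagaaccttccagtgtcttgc
Fcgr3: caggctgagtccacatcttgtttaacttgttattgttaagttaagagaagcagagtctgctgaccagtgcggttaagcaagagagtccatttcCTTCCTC
Fcgr4: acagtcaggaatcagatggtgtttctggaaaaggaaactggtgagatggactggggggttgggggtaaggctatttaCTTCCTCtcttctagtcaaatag
Trem2: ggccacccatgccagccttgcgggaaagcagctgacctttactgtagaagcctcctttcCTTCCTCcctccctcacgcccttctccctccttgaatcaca
Vav1: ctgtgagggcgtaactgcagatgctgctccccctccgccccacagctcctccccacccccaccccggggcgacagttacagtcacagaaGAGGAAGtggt
Cd300a: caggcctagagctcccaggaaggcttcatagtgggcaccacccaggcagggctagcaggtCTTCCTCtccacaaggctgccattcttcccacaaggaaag
Cd300lf: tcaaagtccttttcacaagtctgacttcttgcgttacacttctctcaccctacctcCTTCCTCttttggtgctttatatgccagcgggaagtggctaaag

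In 6 of these 7 sequences the core lies as its reverse complement, and its first base lies between positions −56 and −7, counted back from the start. Cd300lf, an inhibitory receptor for sphingolipids and phosphatidylserine, measured 1.60, 1.74, 3.29 and 3.70 CPM in PBS and 8.73, 5.78, 4.96 and 3.88 in Upy-PEG, with no overlap and a log2 fold change of 1.18 ± 0.323. Cd300a measured 4.33, 2.33, 4.496 and 3.98 CPM in PBS and 8.08, 11.96, 6.75 and 5.80 in Upy-PEG, with Upy-PEG 2 the highest library. Fcgr4 overlapped between groups, since Upy-PEG 3 lay at 2.42 CPM, inside the PBS range of 1.89 to 3.74.

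Other receptors by which phagocytes sense a surface stood higher too. Of 19 C-type lectin and scavenger receptor genes, 12 were higher at an unadjusted p under 0.05 and 0 lower, with a median log2 fold change of 0.67. Msr1, scavenger receptor A, measured 6.45, 6.62, 10.1 and 8.72 CPM in PBS and 20.6, 15.1, 12.9 and 14.5 in Upy-PEG, without overlap, and stood at 0.99 ± 0.213 (edgeR adjusted p = 0.0971, 0.0440 with 8 libraries). Clec4a2, an inhibitory lectin with close copies in its gene cluster, stood at 1.14, and the mannose receptor Mrc1 at 0.48. In the Toll-like receptor and NF-κB list, 10 of 27 genes were higher and 0 lower, with a median of 0.29 (0.16 without Upy-PEG 1). Tlr1, which pairs with TLR2 to bind bacterial lipopeptides, measured 1.82, 2.04, 2.46 and 2.67 CPM in PBS and 5.62, 4.43, 3.49 and 4.73 in Upy-PEG and stood at 1.03 ± 0.219, and Tlr13, Tlr7 and Tlr2 stood at 0.90, 0.69 and 0.50. Tlr4, the receptor for bacterial lipopolysaccharide, stood at 0.29 ± 0.220 and its partner Cd14 at 0.38 ± 0.192, neither at an unadjusted p under 0.05.

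The oxidase of phagocytes, which makes superoxide at the membrane around engulfed material, stood higher. Of 8 genes tested, 7 were higher at an unadjusted p under 0.05, with a median log2 fold change of 0.80, and the list means of the groups came close without overlap (−0.76 to −0.07 in PBS, −0.06 to 0.57 in Upy-PEG). Cybb, the catalytic subunit in the membrane, measured 14.99, 14.7, 21.02 and 19.4 CPM in PBS and 45.1, 34.9, 20.4 and 29.6 in Upy-PEG, a log2 fold change of 0.89 ± 0.218, with Upy-PEG 3 inside the PBS range. The cytosolic subunit gene Ncf4 stood at 1.08 ± 0.339, and Hvcn1, the proton channel that balances the charge of the oxidase, at 1.01 ± 0.253. Mpo, the peroxidase of neutrophil granules, had too few counts to be tested.

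Genes that sense extracellular nucleotides, which leave stressed or dying cells, stood higher on average over the list in every hydrogel library. Of 17 purinergic genes, 9 were higher at an unadjusted p under 0.05 and 0 lower, 7 without overlap, with a median log2 fold change of 0.33. Fold changes were positive for 11 of them and negative for 6, down to −0.41. The list means were −0.22 to −0.09 in PBS and 0.13 to 0.16 in Upy-PEG, so all 4 hydrogel libraries lay within a narrow band above the PBS libraries. P2rx4, an ATP-gated ion channel, measured 25.6, 24.0, 23.02 and 25.4 CPM in PBS and 30.8, 35.7, 31.0 and 30.5 in Upy-PEG. P2ry6, a receptor for UDP that promotes phagocytosis, measured 10.3, 10.5, 12.7 and 15.3 CPM in PBS and 21.9, 21.97, 15.4 and 18.5 in Upy-PEG, and the groups of both genes lay apart. Their log2 fold changes were 0.39 ± 0.0912 and 0.67 ± 0.158 (edgeR adjusted p = 0.0986 and 0.0985). Further along, Entpd1, the ectoenzyme CD39 that breaks down ATP, stood at 0.33, the adenosine receptor gene Adora2b at 0.73 and adenosine deaminase, Ada, at 0.93.

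Genes of lipid mediator synthesis were higher in part. Of 21 genes of prostaglandin and leukotriene synthesis, 6 were higher at an unadjusted p under 0.05 and 0 lower, with a median log2 fold change of 0.17 (0.28 without Upy-PEG 3). Hpgds, the haematopoietic enzyme that makes prostaglandin D2, measured 4.98, 4.71, 6.58 and 5.85 CPM in PBS and 11.7, 13.3, 8.73 and 11.7 in Upy-PEG, without overlap, and stood at 1.04 ± 0.205 (edgeR adjusted p = 0.0971, 0.0440 with 8 libraries). Alox5ap, which presents arachidonic acid to 5-lipoxygenase, measured 18.8, 14.9, 17.7 and 23.5 CPM in PBS and 31.6, 35.6, 26.9 and 33.3 in Upy-PEG and stood at 0.77 ± 0.194, and thromboxane synthase, Tbxas1, stood at 0.72 ± 0.187. Pla2g4a, the cytosolic phospholipase that releases arachidonic acid, stood at 0.54 ± 0.234 (0.36 without Upy-PEG 1), Pla2g7, which breaks down platelet-activating factor, at 0.65 ± 0.220, and Ptger2, a receptor for prostaglandin E2, at 0.94 ± 0.397. Alox5, the 5-lipoxygenase that Alox5ap serves, stood at −0.26 ± 0.161, and Ptgs1, cyclooxygenase 1, at −0.07 ± 0.135, which was positive with scaling by library size alone. The difference between these enzymes was not tested.

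Genes of the actin skeleton and of podosomes, the contacts with which phagocytes grip and degrade a surface, formed the list with the most genes lying without overlap above PBS. Of 25 tested, 17 were higher at an unadjusted p under 0.05 and 0 lower, 14 lay without overlap above PBS, and the median log2 fold change was 0.58. The list means ran from −0.53 to −0.09 in PBS and from 0.02 to 0.52 in Upy-PEG. Cotl1, a coactosin that binds actin filaments, measured 27.9, 26.0, 35.7 and 41.3 CPM in PBS and 77.5, 71.6, 56.1 and 54.3 in Upy-PEG. Capg, which caps filament ends, measured 21.04, 18.2, 23.8 and 26.9 CPM in PBS and 49.3, 49.5, 36.0 and 42.7 in Upy-PEG. Both genes' groups lay apart, with Upy-PEG 1 and 2 the highest libraries. They stood at 0.99 ± 0.205 and 0.98 ± 0.223, and Plek, pleckstrin, at 0.996 ± 0.225 (edgeR adjusted p = 0.0971 for all 3; 0.0440, 0.0440 and 0.0485 with 8 libraries). Genes with wider expression also stood higher: Actb, cytoplasmic actin, at 0.62 ± 0.180 and Arpc1b, a subunit of the Arp2/3 nucleator, at 0.58 ± 0.172.

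Leukocyte integrin and adhesion genes were higher in 10 of 20 cases and lower in 0, with a median of 0.61 (0.26 without Upy-PEG 1). Itgax, which encodes CD11c, measured 1.60, 1.10, 2.75 and 1.71 CPM in PBS and 5.56, 4.56, 2.62 and 3.47 in Upy-PEG, with PBS 3 above Upy-PEG 3, and stood at 1.18 ± 0.275. Of 21 S100, annexin and galectin genes, 11 were higher and 0 lower, and the list means did not overlap (up to 0.02 in PBS, from 0.20 in Upy-PEG). S100a4 measured 7.79, 7.30, 10.7 and 14.5 CPM in PBS and 20.2, 22.5, 18.2 and 21.1 in Upy-PEG. S100a11 measured 18.6, 17.8, 25.4 and 26.0 CPM in PBS and 58.9, 51.8, 30.8 and 43.2 in Upy-PEG, and both lay without overlap, with log2 fold changes of 1.03 ± 0.296 and 1.07 ± 0.275 (edgeR adjusted p = 0.134 and 0.114, 0.0440 for both with 8 libraries). S100a4 and S100a11 are calcium-binding proteins of migrating cells, and Anxa1, a phospholipid-binding protein of resolving inflammation, stood at 0.72 ± 0.204.

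Genes of fibrinolysis stood higher and a pair of clotting regulators of the vessel wall lower. Of 21 tested, 8 were higher at an unadjusted p under 0.05 and 2 lower, with a median of 0.52. The plasminogen activator urokinase, Plau, measured 7.62, 7.04, 9.16 and 6.85 CPM in PBS and 17.1, 11.5, 9.48 and 11.6 in Upy-PEG and stood at 0.70 ± 0.185. Serpine2, a secreted inhibitor of serine proteases, stood at 0.44 ± 0.132. The 2 lower genes were F3, the tissue factor that starts clotting, at −0.36 ± 0.148 (−0.23 without Upy-PEG 1), and Thbd, thrombomodulin, which restrains thrombin on endothelium, at −0.31 ± 0.106. Thbd measured 74.0, 89.6, 80.1 and 73.9 CPM in PBS and 54.6, 67.3, 65.2 and 69.9 in Upy-PEG, without overlap.

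**Figure D2:**
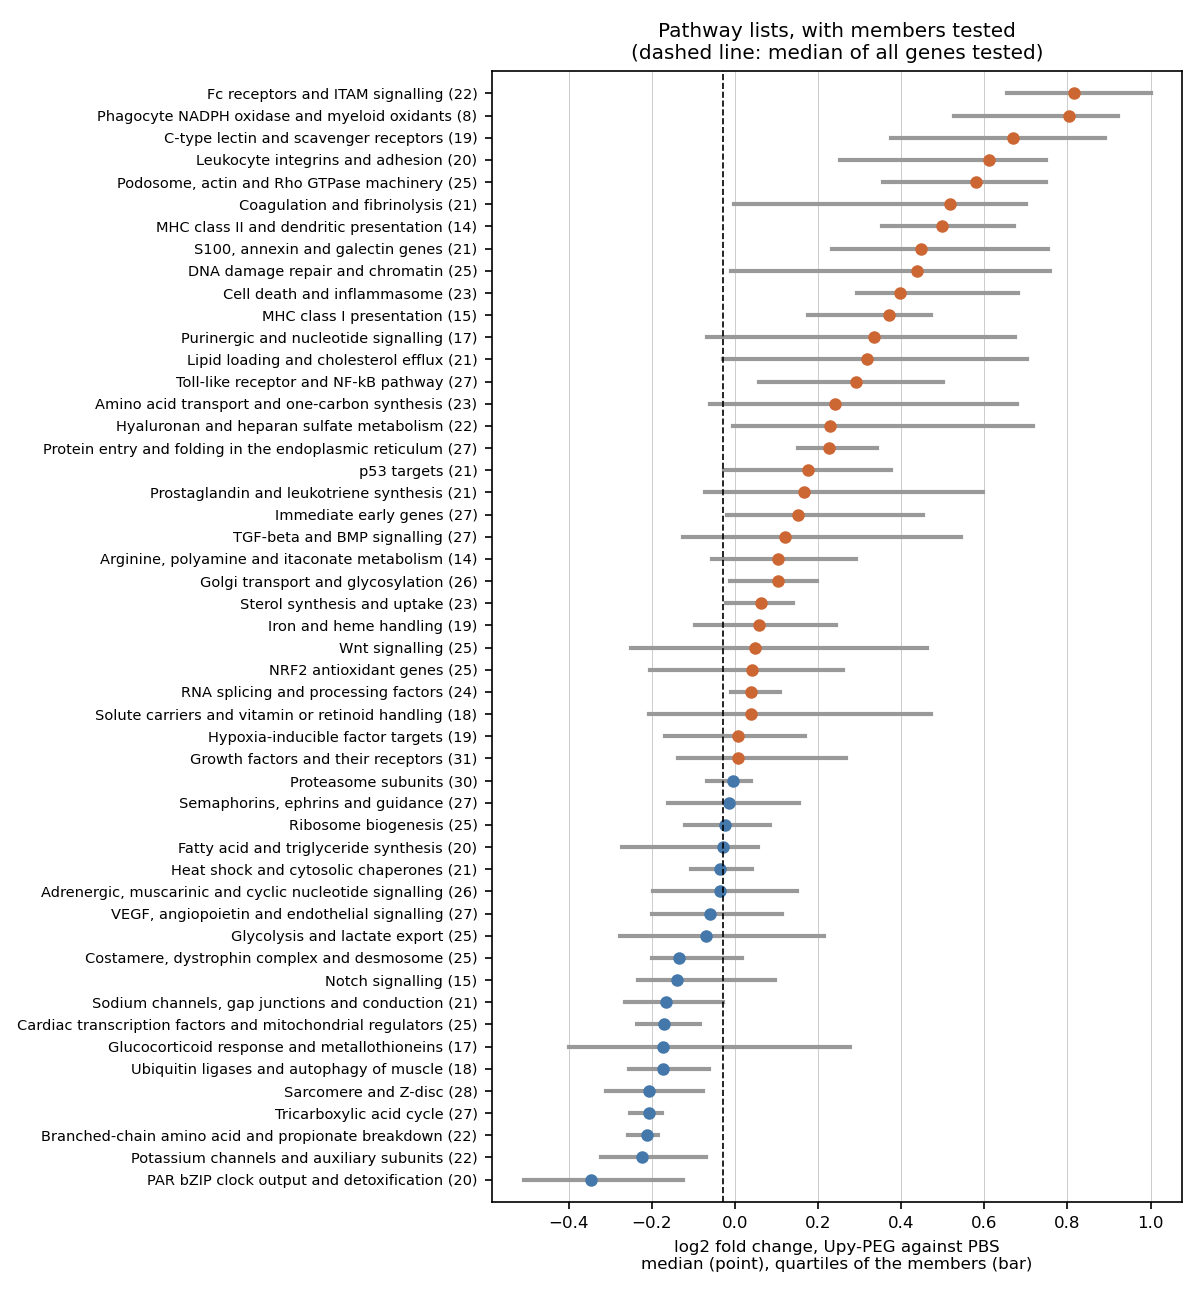
Median log2 fold change (point) and quartiles (bar) of the members of the 50 pathway lists, with the number tested in brackets and the median of all genes, −0.03, as a dashed line. Phagocyte receptor, oxidase and actin lists lie furthest to the right, up to 0.82, and clock output and detoxification genes furthest to the left, at −0.35.

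Enzymes of the tricarboxylic acid cycle, which completes the oxidation of all fuels in mitochondria, had lower values by a small amount. All 27 genes tested had negative fold changes, 4 at an unadjusted p under 0.05 and 0 higher, with a median of −0.21 (−0.11 without Upy-PEG 1, −0.08 without PBS 1 as well). Pdk2, a kinase that switches off pyruvate dehydrogenase, measured 468, 559, 489 and 451 CPM in PBS and 328, 369, 406 and 418 in Upy-PEG and stood at −0.37 ± 0.143. Ogdh, of the 2-oxoglutarate dehydrogenase complex, measured 2646, 3169.7, 2648 and 2402 CPM in PBS and 2003, 2146, 2301 and 2169.9 in Upy-PEG and stood at −0.33 ± 0.151. The groups of both genes did not overlap. Breakdown of branched-chain amino acids and propionate gave the same picture, with 22 of 22 negative, 5 at an unadjusted p under 0.05, and a median of −0.21 (−0.11 without Upy-PEG 1). Klf15, a transcription factor that drives this breakdown in heart muscle, measured 51.02, 66.9, 52.0 and 48.1 CPM in PBS and 28.6, 36.5, 37.7 and 47.1 in Upy-PEG, without overlap, and stood at −0.54 ± 0.164. Upy-PEG 1 had the lowest list mean in both lists, at −0.45 and −0.45, and Upy-PEG 3, at 0.12 and 0.08, lay inside the PBS ranges. Ventricular muscle markers lay lower beside them, with all 8 tested negative, 1 at an unadjusted p under 0.05, a median of −0.24 and list means of 0.04 to 0.18 in PBS and −0.23 to 0.05 in Upy-PEG. The sarcomere genes described further on had a median of −0.21, and the part of muscle cells in these values was not tested.

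In glucose and lactate handling, isoforms of 1 family lay on opposite sides of 0. The list as a whole had 3 of 25 genes higher and 5 lower at an unadjusted p under 0.05, with a median of −0.07 (−0.05 without Upy-PEG 1) that was positive with scaling by library size alone and on RPKM. Among glucose transporters, the insulin-responsive Slc2a4 (GLUT4), with 132 RPKM in PBS, measured 433, 491, 462 and 473 CPM in PBS and 311, 378, 432 and 403 in Upy-PEG and stood at −0.29 ± 0.127. Slc2a3 (GLUT3), with 0.317 RPKM, measured 2.18, 2.16, 2.62 and 2.31 CPM in PBS and 3.17, 2.74, 3.21 and 3.62 in Upy-PEG and stood at 0.46 ± 0.167. Neither transporter's groups overlapped. Among hexokinases, the muscle isoform Hk2 (72.9 RPKM) stood at −0.28 ± 0.1195, the myeloid isoform Hk3 (1.33 RPKM) at 0.87 ± 0.252 and the widespread Hk1 (23.9 RPKM) at 0.03 ± 0.123. Among lactate carriers, Slc16a1 (MCT1, 69.3 RPKM) stood at −0.28 ± 0.124 and the exporter Slc16a3 (MCT4, 0.768 RPKM) at 1.13 ± 0.363. The muscle phosphofructokinase gene Pfkm (392 RPKM) stood at −0.30 ± 0.123, and Ldha, lactate dehydrogenase A, at 0.09 ± 0.133. Per length in PBS hearts, the lower Slc2a4, Hk2 and Slc16a1 were more abundant than the higher Slc2a3, Hk3 and Slc16a3, which were rare. Hk1 lay near 0 and was not rare. Slc2a4, Hk2 and Slc16a1 were chosen after their values were seen. Over the list, 12 fold changes were positive and 13 negative. The difference between isoforms was not tested.

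**Figure D3:**
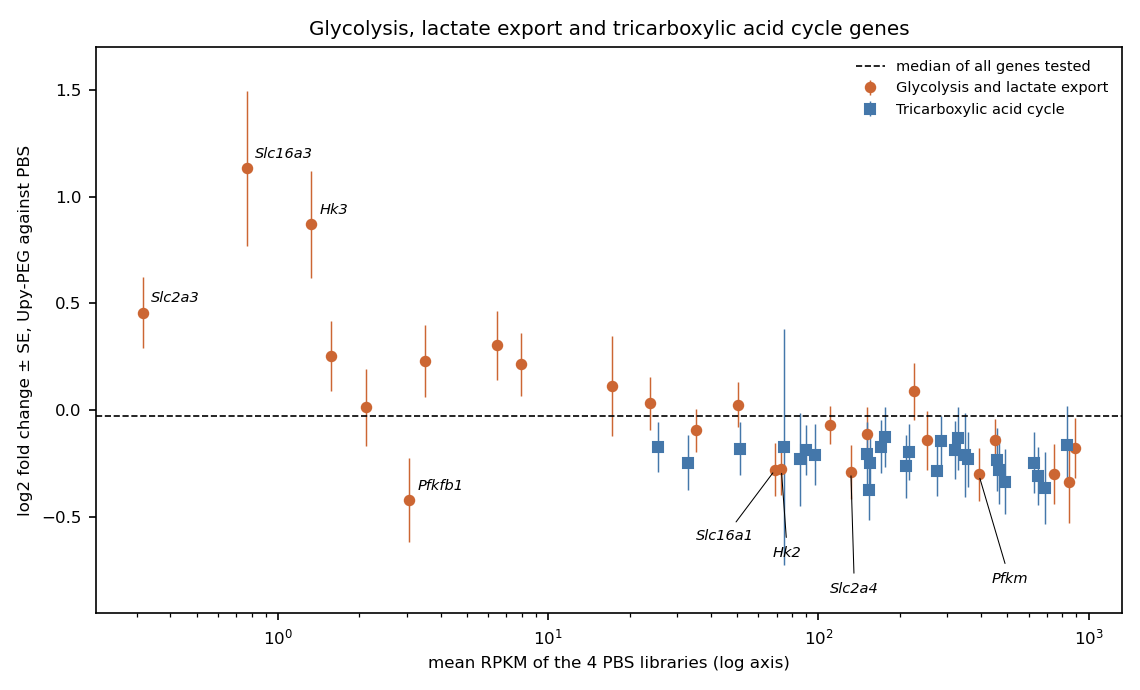
Log2 fold change with SE against mean RPKM in PBS (log axis) for the glycolysis and lactate list (circles) and the tricarboxylic acid cycle list (squares), with glycolysis genes at an unadjusted p under 0.05 named. The rare isoforms Slc16a3, Hk3 and Slc2a3 lie above 0 and the rare Pfkfb1 below it, and Slc2a4, Hk2, Slc16a1 and Pfkm lie below 0 among the cycle genes.

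Genes of lipid loading and cholesterol efflux stood higher, and those of fatty acid and triglyceride synthesis lay on both sides of 0. Of 21 genes of lipid loading and cholesterol efflux, 11 were higher and 0 lower at an unadjusted p under 0.05, with a median of 0.32 and list means of −0.34 to −0.10 in PBS and 0.10 to 0.33 in Upy-PEG. Fabp5, a fatty acid carrier of macrophages and endothelium, measured 21.4, 17.5, 24.0 and 21.9 CPM in PBS and 33.8, 40.7, 35.5 and 25.6 in Upy-PEG, without overlap, and stood at 0.68 ± 0.142 (edgeR adjusted p = 0.0971, 0.0485 with 8 libraries). Soat1, which esterifies cholesterol for storage, stood at 0.90 ± 0.238, and the exporters Abcg1 and Abca1 at 0.67 ± 0.178 and 0.32 ± 0.1199. Apoe, a lipid acceptor, measured 740.1, 379, 491 and 643 CPM in PBS and 811, 1277, 678 and 904 in Upy-PEG, which overlapped between groups, and stood at 0.70 ± 0.296. Sterol synthesis did not stand higher, with 0 of 23 genes higher and 1 lower and a median of 0.06 (−0.02 without Upy-PEG 1); the lower one, Hsd17b7, stood at −0.58 ± 0.198. In the fatty acid and triglyceride list 1 of 20 genes was higher and 3 lower, with 9 fold changes positive and 11 negative. The higher one was Scd2, a fatty acid desaturase, at 0.59 ± 0.265 (0.25 without Upy-PEG 1). Among the lower ones, Dgat2, which makes triglyceride, measured 487, 474, 434 and 475 CPM in PBS and 222, 314, 394 and 379 in Upy-PEG, without overlap, and stood at −0.52 ± 0.163. Acacb, the acetyl-CoA carboxylase that restrains fatty acid oxidation, stood at −0.46 ± 0.159, and the lipase Pnpla2 at −0.30 ± 0.133. The median of that list, −0.03, turned positive with scaling by library size alone, on RPKM and without Upy-PEG 3 (0.02). Adipocyte markers were lower beside them, in 2 of 4 tested, with list means of 0.01 to 0.47 in PBS and −0.61 to −0.13 in Upy-PEG, and their part in the triglyceride genes was not tested.

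Supply of amino acids and one-carbon units stood higher, with 8 of 23 genes higher and 1 lower and a median of 0.24 (0.13 without PBS 1). Mthfd2, a mitochondrial enzyme of the folate cycle used by dividing cells, measured 2.38, 3.52, 4.04 and 4.10 CPM in PBS and 8.76, 6.54, 4.68 and 5.61 in Upy-PEG. The transporter Slc7a8 measured 3.78, 6.40, 8.16 and 6.45 CPM in PBS and 17.1, 11.7, 8.69 and 9.68 in Upy-PEG. Neither gene's groups overlapped, and they stood at 0.87 ± 0.229 and 0.93 ± 0.240. Psat1 of serine synthesis stood at 0.80 ± 0.259. Among iron genes 3 of 19 were higher and 0 lower, with a median of 0.06 (0.02 without Upy-PEG 2). The ferritin light chain Ftl1 measured 119.7, 104, 153 and 121 CPM in PBS and 192, 262, 181 and 219 in Upy-PEG, without overlap, and stood at 0.78 ± 0.199 (edgeR adjusted p = 0.113, 0.0440 with 8 libraries), the phagosomal metal carrier Slc11a1 stood at 0.62 ± 0.197 and haem oxygenase, Hmox1, at 0.85 ± 0.355. PBS 3 had 116 CPM of Hmox1, within the Upy-PEG range, and without it the value was 1.45. The NRF2 antioxidant list, to which Hmox1 also belongs, had 4 higher and 3 lower of 25, a median of 0.04 (−0.01 without PBS 4), with the pentose phosphate enzymes G6pdx and Pgd at 0.56 ± 0.163 and 0.37 ± 0.111 and the mitochondrial superoxide dismutase Sod2 at −0.29 ± 0.1197.

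Genes for protein entry into the endoplasmic reticulum stood higher by small amounts. All 27 tested had positive fold changes, 13 at an unadjusted p under 0.05, with a median of 0.23 and list means of −0.25 to −0.02 in PBS and 0.05 to 0.20 in Upy-PEG. The median stayed between 0.21 and 0.25 when any 1 library was left out. Spcs3, of the signal peptidase, measured 68.7, 63.8, 74.3 and 61.0 CPM in PBS and 110.0, 89.5, 80.2 and 87.7 in Upy-PEG. Pdia6, which forms disulfide bonds, measured 105, 80.5, 87.5 and 102 CPM in PBS and 136, 145, 123 and 109 in Upy-PEG. Both lay without overlap, with log2 fold changes of 0.46 ± 0.123 and 0.45 ± 0.144. Hspa5, the chaperone most often used as a sign of stress in this compartment, stood at 0.12 ± 0.137, with 516, 391, 345 and 384 CPM in PBS and 407, 471, 518 and 377 in Upy-PEG, and its groups overlapped. In the Golgi list 6 of 26 were higher and 0 lower, with a median of 0.10; the retrieval receptors Kdelr3 and Kdelr2 stood at 0.88 ± 0.223 and 0.45 ± 0.140, and Creb3l1, a factor for secretion of collagen, at 0.86 ± 0.264.

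**Figure D4:**
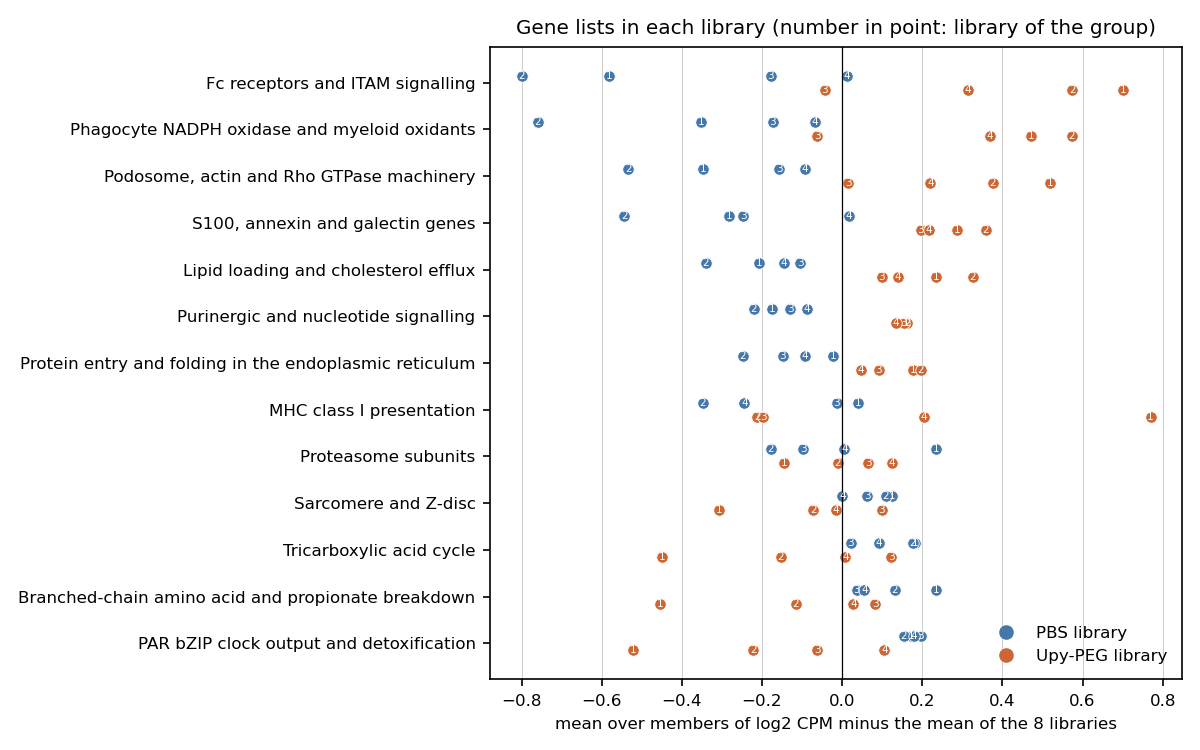
Mean over list members of log2 CPM minus the mean of the 8 libraries, with the library number inside each point. PBS and Upy-PEG points do not cross for the oxidase, actin, S100, lipid efflux, purinergic and endoplasmic reticulum lists; Upy-PEG 1 lies far left for the cycle, amino acid breakdown and clock output lists and far right for MHC class I.

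Values of antigen presentation genes rested in part on 1 library. The MHC class I list had a median of 0.37 and 0.04 without Upy-PEG 1, with 1 of 15 genes higher, and its transactivator Nlrc5 measured 4.79, 6.45, 10.2 and 5.495 CPM in PBS and 32.3, 6.15, 5.99 and 8.27 in Upy-PEG, high in Upy-PEG 1 alone. The MHC class II list had 5 of 14 higher and a median of 0.50 (0.25 without Upy-PEG 1; list means −0.45 to 0.74 in Upy-PEG and −0.66 to 0.10 in PBS). Its clearest member was the protease Ctss, which trims the invariant chain, with 70.5, 46.6, 81.8 and 92.8 CPM in PBS and 188, 218, 114 and 155 in Upy-PEG, no overlap and a log2 value of 1.21 ± 0.308 (edgeR adjusted p = 0.113, 0.0440 with 8 libraries). In the list of cell death and inflammasome genes 8 of 23 were higher and 0 lower, with a median of 0.40. Il18, a cytokine released by inflammasomes, measured 0.391, 0.424, 0.458 and 0.836 CPM in PBS and 1.18, 1.82, 1.31 and 1.15 in Upy-PEG. Ripk3, a kinase of necroptosis, measured 2.48, 3.31, 4.08 and 3.86 CPM in PBS and 6.96, 6.38, 4.40 and 4.99 in Upy-PEG. Both lay without overlap, at 1.37 ± 0.384 and 0.73 ± 0.216.

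Among signals between cells, some members of the transforming growth factor beta, Wnt and growth factor lists stood higher (9.33% of all genes did). Signs were nearly even in the Wnt list (13 positive, 12 negative) and the growth factor list (16 and 15). In the transforming growth factor beta list they were 18 and 9. In the transforming growth factor beta and BMP list 9 of 27 were higher and 1 lower, with a median of 0.12 (0.04 without Upy-PEG 1, 0.22 without Upy-PEG 3). Inhbb, an activin subunit, measured 3.45, 3.82, 4.29 and 3.78 CPM in PBS and 7.27, 5.42, 4.76 and 6.61 in Upy-PEG and stood at 0.65 ± 0.195; Fstl1, a secreted glycoprotein of injured heart, measured 155, 148, 184 and 213 CPM in PBS and 459, 357, 219 and 255 in Upy-PEG and stood at 0.88 ± 0.271. Both lay without overlap. In the Wnt list 4 of 25 were higher and 0 lower (median 0.05, −0.02 without PBS 1). Sfrp1, a secreted Wnt inhibitor, measured 17.6, 19.9, 22.1 and 21.98 CPM in PBS and 41.1, 39.6, 24.2 and 30.6 in Upy-PEG and stood at 0.73 ± 0.174 (edgeR adjusted p = 0.0986). Ccn4, a matricellular protein induced by Wnt signals, measured 2.67, 4.41, 7.04 and 5.495 CPM in PBS and 27.9, 13.5, 7.22 and 8.50 in Upy-PEG, at 1.55 ± 0.416, 1.003 without Upy-PEG 1. Among growth factors 5 of 31 were higher and 0 lower (median 0.01, −0.08 without PBS 1): Igf1, insulin-like growth factor 1, stood at 0.72 ± 0.203, and Nrg1, neuregulin, at 1.16 ± 0.374.

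Some genes of endothelial signalling stood lower, while their list as a whole lay near the median of all genes. Fold changes were negative for 16 and positive for 11. List means overlapped, at −0.06 to 0.13 in PBS and −0.10 to 0.04 in Upy-PEG. Of 27 VEGF, angiopoietin and endothelial genes, 5 were lower at an unadjusted p under 0.05 and 1 higher, with a median of −0.06 (−0.01 without PBS 1) that turned positive with scaling by library size alone and on RPKM. The VEGF receptor gene Flt1 measured 133, 191, 171 and 147 CPM in PBS and 122, 123, 121 and 127 in Upy-PEG. The receptor gene Tie1 measured 149, 133, 121 and 124 CPM in PBS and 116, 107, 99.0 and 108 in Upy-PEG. Both lay without overlap, at −0.38 ± 0.136 and −0.29 ± 0.108. The endothelial Notch pair Dll4 and Notch4, ligand and receptor, stood at −0.40 ± 0.129 and −0.36 ± 0.119, in a Notch list with 1 higher and 2 lower of 15. Robo4, a receptor of stable vessels, stood at −0.34 ± 0.113 in a guidance list with 1 higher and 2 lower of 27. Epas1, the hypoxia-inducible factor of endothelium, stood at −0.48 ± 0.167, while Car9, a carbonic anhydrase induced by hypoxia, was the highest of the hypoxia list at 2.46 ± 0.490, a rare transcript with 0.0977, 0.0424, 0.125 and 0.199 CPM in PBS and 0.963, 0.694, 0.516 and 0.443 in Upy-PEG (edgeR adjusted p = 0.0971, 0.0440 with 8 libraries). The rest of the hypoxia list lay near 0, with 1 higher and 1 lower of 19 and a median of 0.01.

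Enzymes for hyaluronan and heparan sulfate, sugars of the matrix, had 9 higher and 0 lower of 22, with a median of 0.23 (0.14 without Upy-PEG 1). Hpse, heparanase, which cuts heparan sulfate, measured 2.18, 1.82, 3.79 and 3.78 CPM in PBS and 6.46, 8.46, 4.44 and 5.87 in Upy-PEG, without overlap, and stood at 1.13 ± 0.289. Has2, a hyaluronan synthase, stood at 1.24 ± 0.419 (0.79 without Upy-PEG 1), and Cemip, which breaks hyaluronan down, at 2.82 ± 0.837. Cemip had 10.4 CPM in Upy-PEG 1 and at most 1.22 in the others, and stood at 0.94 without that library.

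Most genes of the muscle cell itself also lay lower by a small amount. Of 28 sarcomere genes, 22 had negative fold changes, and 3 were lower and 1 higher at an unadjusted p under 0.05. Their median was −0.21 (−0.13 without Upy-PEG 1), close to the −0.21 of the tricarboxylic acid cycle list. Myh6, the main myosin of the mouse ventricle, measured 32438, 36112, 30865 and 28477 CPM in PBS and 21323, 21436, 26395 and 26393 in Upy-PEG, without overlap, and stood at −0.42 ± 0.170. The higher member was Pdlim5, a Z-disc protein, at 0.22 ± 0.102. Costamere and desmosome genes had 1 higher and 0 lower of 25, with a median of −0.14. Cardiac transcription factors and mitochondrial regulators had 0 higher and 1 lower of 25, with a median of −0.17. Skeletal muscle markers had 1 higher of 7 tested, and their list means did not overlap (−0.39 to −0.09 in PBS, 0.03 to 0.32 in Upy-PEG). Ubiquitin ligases and autophagy genes of muscle had 4 lower and 0 higher of 18 (median −0.17, −0.10 without Upy-PEG 1): the ligase genes Fbxo32 (atrogin-1) and Trim63 (MuRF1) of muscle wasting stood at −0.49 ± 0.187 and −0.26 ± 0.101, and the autophagy kinase Ulk1 at −0.38 ± 0.136, with 105, 133, 124 and 106 CPM in PBS and 93.7, 87.8, 79.1 and 98.1 in Upy-PEG.

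Among channels, 3 of 22 potassium channel genes were lower and 2 higher, with a median of −0.22. The lower ones were the inward rectifier genes Kcnj5 (−0.26 ± 0.0915) and Kcnj8 (−0.32 ± 0.147, −0.19 without PBS 1) and Abcc9 (−0.46 ± 0.194), the last 2 being subunits of ATP-sensitive channels of vessels. The higher ones were Kcnab2, given above, and Kcnn4, a calcium-activated channel of leukocytes, which measured 1.01, 1.06, 2.21 and 1.79 CPM in PBS and 4.54, 3.63, 2.98 and 3.44 in Upy-PEG, without overlap, and stood at 1.27 ± 0.303 (edgeR adjusted p = 0.0986, 0.0485 with 8 libraries). Kcnn4 and the lower Kcnn2 belong to 1 family of calcium-activated channels. Sodium channel and conduction genes had 3 lower and 0 higher of 21 (median −0.17, −0.09 without PBS 2), among them Scn4b, a β subunit, at −0.63 ± 0.213 (−0.42 without PBS 1). The adrenergic and cyclic nucleotide list had 3 higher and 0 lower of 26 and a median of −0.04 that turned positive with scaling by library size alone, on RPKM and without Upy-PEG 4 (0.03). Prkar2b, a regulatory subunit of protein kinase A, measured 1.60, 1.48, 1.75 and 1.79 CPM in PBS and 3.82, 4.00, 2.26 and 2.66 in Upy-PEG and stood at 0.95 ± 0.205 (edgeR adjusted p = 0.0971).

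Output of the circadian clock had the lowest median of the 50 pathway lists. The PAR bZIP factors TEF and HLF are driven by the clock and in turn drive enzymes that clear foreign compounds. Of 20 such genes, 6 were lower and 1 higher at an unadjusted p under 0.05, 5 without overlap, with a median of −0.35 (−0.25 without Upy-PEG 1, −0.14 without PBS 1 as well). Tef measured 229.9, 258, 252 and 237 CPM in PBS and 113, 149.7, 168 and 210.3 in Upy-PEG and stood at −0.61 ± 0.216. The carboxylesterase gene Ces1d measured 143, 119, 109 and 121 CPM in PBS and 64.8, 81.0, 99.7 and 105 in Upy-PEG and stood at −0.49 ± 0.142, and Fmo1, a flavin monooxygenase, at −0.39 ± 0.146. The PBS libraries lay close together for this list, at 0.15 to 0.20, and the Upy-PEG libraries were spread from −0.52 to 0.11. The glucocorticoid response list had 1 higher and 3 lower of 17, with Tsc22d3, induced by the hormone, at −0.45 ± 0.178. The hour of tissue collection is not given in the labels, and its part in these values was not tested.

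The p53 list had 3 of 21 genes higher and 0 lower, with a median of 0.18 (0.11 without PBS 2). Cdkn1a, the cell cycle inhibitor p21, measured 12.9, 15.7, 14.1 and 14.4 CPM in PBS and 36.3, 28.3, 23.3 and 17.7 in Upy-PEG, without overlap, and stood at 0.89 ± 0.294 (edgeR adjusted p = 0.194, 0.0485 with 8 libraries); Gdf15, a stress hormone, measured 3.58, 3.44, 5.87 and 2.83 CPM in PBS and 11.3, 7.80, 4.36 and 8.50 in Upy-PEG and stood at 1.03 ± 0.330. Of 25 DNA repair and chromatin genes, 12 were higher and 0 lower (median 0.44), with Brca1 at 1.21 ± 0.293 and the chromatin assembly factor Chaf1a at 0.58 ± 0.161. Immediate early genes went both ways, 6 higher and 2 lower of 27, with a median of 0.15 (0.01 without Upy-PEG 1): Nr4a1, an early receptor gene, measured 54.0, 19.4, 44.2 and 31.6 CPM in PBS and 11.6, 15.2, 29.1 and 11.5 in Upy-PEG and stood at −1.15 ± 0.364. Atf3, a stress factor, measured 6.48, 3.52, 6.08 and 5.46 CPM in PBS and 8.45, 10.7, 10.7 and 6.50 in Upy-PEG and stood at 0.75 ± 0.265.

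Several housekeeping groups held no or few genes at an unadjusted p under 0.05. Proteasome subunits had 0 higher and 0 lower of 30, splicing factors 0 and 0 of 24, ribosome biogenesis genes 1 and 1 of 25, and heat shock genes 0 and 1 of 21. Their medians were −0.01, 0.04, −0.02 and −0.03; those of proteasome, ribosome biogenesis and heat shock genes turned positive with scaling by library size alone, on RPKM and without PBS 1. Within the proteasome list the highest value was that of the immunoproteasome subunit Psmb9, at 0.52 ± 0.262 (0.25 without Upy-PEG 1).

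Markers of other cells were measured beside these groups. T cell markers were scarce: 10 of the 14, among them Cd3e and Cd8a, had too few counts to be tested. The 4 tested had positive fold changes, 1 at an unadjusted p under 0.05, with a median of 0.62 (0.26 without Upy-PEG 1). The higher one, Il7r, the interleukin 7 receptor, measured 0.619, 0.509, 1.25 and 0.956 CPM in PBS and 2.33, 1.78, 0.952 and 1.26 in Upy-PEG, with overlap, and stood at 0.94 ± 0.343, and Cd4 stood at 0.27 ± 0.320. No eosinophil marker of 8 could be tested. Mast cell markers had 0 higher and 0 lower of 6, and B cell markers 2 higher of 9, with Cd22 at 1.16 ± 0.382. Platelet markers were higher in 1 of 6 genes: Pf4, platelet factor 4, measured 31.0, 17.9, 28.0 and 30.1 CPM in PBS and 39.9, 53.9, 42.0 and 52.2 in Upy-PEG, without overlap, and stood at 0.81 ± 0.299 (edgeR adjusted p = 0.242, 0.0485 with 8 libraries), whereas the platelet glycoprotein gene Gp9 stood at 0.59 ± 0.738. Of pericyte and smooth muscle markers 3 of 12 were lower and 0 higher (median −0.13), and lymphatic markers had 1 higher and 0 lower of 7. Epicardial markers varied between libraries of 1 group, with list means of −0.53 to 0.90 in PBS and −0.24 to 0.36 in Upy-PEG. Atrial muscle markers varied as well, with list means of −0.66 to 0.57 in PBS and −0.48 to 0.72 in Upy-PEG. Of 9 atrial markers tested, 1 was higher (Nppa) and 1 lower (Kcnj5), with a median of −0.26 (0.09 without PBS 4). Natural killer cell markers had 0 higher and 0 lower of 3 at an unadjusted p under 0.05, though all 3 fold changes were positive, with a median of 0.95. Their list means were widely spread, at −0.55 to 0.01 in PBS and −0.77 to 0.92 in Upy-PEG. Schwann cell and neuron markers had 1 higher and 0 lower of 8, and endocardial markers 2 and 0 of 5. The part of any of these cells in the gene groups above was not tested.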

How the data were processed

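Libraries were polyA RNA of left ventricle, 4 per group. The authors deposited raw counts per gene, and RPKM per gene as a second table; per the submitters' processing notes the tools were STAR, HTSeq and DESeq with build GRCm38, and their versions and the strand setting are not given in the sources used here. Counts in the table equalled the per-sample files in 459516 of 459516 cells, and rows that name no gene were left out (6.25% to 8.21% of counts on no gene in the 8 libraries). Genes with enough counts (filterByExpr, 14770 of 38293) were fitted with edgeR 4.0.16 (R 4.3.3), using TMM scaling and group means over all 12 libraries (9 residual degrees of freedom), with Benjamini-Hochberg adjustment over all genes tested. The procedure was tested on simulated data. The genes named were the 12 higher and 12 lower with the lowest p and, within each list described, up to 4 members with the lowest p and those of defining role. F3, Thbd, Slc2a4, Hk2, Slc16a1, Vav1, Cd300lf, Entpd1, Adora2b, Arpc1b, Abcg1, Abca1 and Has2 fall outside this rule and were chosen after their values were seen. The comparison, lists and rule were chosen with earlier results of these data known. Alternatives were relative log expression or library size scaling, no filter, a floor of 1 on mean CPM, fits with DESeq2 1.42.0 and limma 3.58.1 (voom with sample weights, and trend on log2(RPKM + 0.1)), the 8 libraries alone, a length covariate and leaving out each library. Promoters came from RefSeq (GRCm38.p6), matched by symbol.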

Additional observations from a re-analysis of the deposited data

Results flagged for a closer look

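In 19 of 478 sets of 4 libraries, or 3.98%, 1 library lay far from the other 3 by Dixon's criterion, which chance alone gives in about 1 in 20 groups. Among PBS libraries, replicate 3 was high for Alcam (3.66 CPM, next 2.80) and Kcnn2 (23.8 CPM, next 20.3), replicate 4 for Il18 (0.836 CPM, next 0.458) and replicate 1 for Gp9 (0.814 CPM, next 0.239). Low PBS libraries were replicate 1 for Tlr7 (3.19 CPM, next 4.84) and replicate 2 for Pgd (39.9 CPM, next 44.3).

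Among Upy-PEG libraries, replicate 1 was high for the MHC class I transactivator Nlrc5 (32.3 CPM, next 8.27) and the hyaluronan-degrading Cemip (10.4 CPM, next 1.22). Replicate 4 was high for the atrial gene Myl7 (13.9997 CPM, next 3.26) and for Retnla (1.85 CPM, next 1.26), replicate 2 was high for P2rx4 (35.7 CPM, next 31.0), and replicate 3 was low for Slc11a1 (13.3 CPM, next 21.3).

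Whole lists stood apart as well, measured by their list means. In Upy-PEG 1 the mean was the highest of its group for fatty acid and triglyceride synthesis (0.11) and for sodium channels and conduction (0.10), and the lowest for ubiquitin ligases and autophagy of muscle (−0.27). In PBS the resident macrophage markers were highest in replicate 4 (0.14) and the lymphatic markers lowest in replicate 1 (−0.30). PBS 1 also stood apart in library measures, with 6.25% of counts on no gene (next 7.59%) and 12.3% on mitochondrial genes (next 18.7%).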

How the results depend on the processing

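The 24 leading genes kept their direction under the settings that gave them a value; Gm4524 and Cd46 had none at a mean CPM of at least 1. The count at an adjusted p under 0.05, 0 in the main model, was 69 without the count filter, 511 with DESeq2, 918 with voom and sample weights, 172 with only the 8 libraries, 332 with a gene length covariate, 155 at an adjusted p under 0.10, and 0 to 46 with 1 library left out (46 without Upy-PEG 3). The 566 genes lower at an unadjusted p under 0.05 became 174 with scaling by library size alone, 1647 with voom, 185 on RPKM, 1626 with the length covariate and 290 to 630 with 1 library left out. The 1378 higher became 766 with PBS 1 and Upy-PEG 1 left out together, an alternative added after seeing the data. List medians moved beyond the spread between libraries as follows. With library size alone and on RPKM, they were 0.0315 and 0.0310 for glycolysis, 0.11 and 0.11 for hypoxia, 0.20 and 0.20 for arginine, 0.33 and 0.32 for endoplasmic reticulum entry, 0.22 and 0.20 for Golgi, 0.0837 and 0.0743 for ribosome biogenesis, 0.0547 and 0.0365 for VEGF, 0.45 and 0.42 for purinergic and 0.14 and 0.14 for splicing genes. With library size alone they were 0.43 for lipid efflux, 0.0773 for fatty acid synthesis and 0.0712 for adrenergic genes. With PBS 1 and Upy-PEG 1 both left out they were 0.21 for integrins, −0.0240 for glycolysis, 0.0498 for hypoxia, 0.0556 for ribosome biogenesis, 0.0767 for heat shock, −0.0749 for sarcomere, −0.14 for clock output, 0.26 for purinergic, −0.28 for lymphatic, −0.13 for ventricular, −0.46 for adipocyte and 1.18 for platelet genes. The purinergic median was 0.38 with DESeq2, the glucocorticoid median 0.0004 with voom and the skeletal muscle median 0.24 with the 8 libraries. With 1 library left out, medians ran from 0.26 to 0.80 for integrins, −0.28 to −0.0135 for Notch, 0.32 to 0.41 for purinergic and 0.26 to 0.40 for skeletal muscle genes. Among the single genes named, 4 changed sign: Myl7 (−1.48 to 0.18 with 1 library left out, positive without PBS 4 or Upy-PEG 2); Ptgs1 to 0.0318 with library size alone and 0.0350 on RPKM (−0.16 to 0.0044 with 1 left out, positive without PBS 4 or Upy-PEG 3); Hk1 to −0.0096 with voom and −0.0485 with PBS 1 and Upy-PEG 1 left out (−0.0263 to 0.10 with 1 left out, negative without Upy-PEG 1); and Nlrc5 to −0.11 with those left out. The cause was not tested. No paired analysis was possible because the labels give no replicate numbers, and the numbers used here follow the order of the samples. The natural killer cell list gave no value at a mean CPM of at least 1. With 4 libraries a group, differences below the spread between libraries could not be resolved for most genes.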
